A study of Homo sapiens with 27 samples.

Results

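The miR-17-92 cluster was examined as 8 mature miRNAs, hsa-miR-17-5p, hsa-miR-17-3p, hsa-miR-18a-5p, hsa-miR-18a-3p, hsa-miR-19a-3p, hsa-miR-19b-3p, hsa-miR-20a-5p and hsa-miR-92a-3p, taken by name from the 9 deposited count tables, in which 2276 miRNAs were listed in all. The prefix hsa, for human, is left out below. Small RNA had been sequenced from 27 libraries in 9 groups of 3. The 15 hESC libraries came from H1, an established human embryonic stem cell line, and the 12 K562 libraries from an established line of chronic myelogenous leukemia. In the hESC line the groups were the USB1 mutant with a short hairpin against PAPD5 (shPAPD5), the mutant with an inducible wild-type USB1 transgene (iUSB1-WT) with doxycycline (+Dox) and without it (-Dox), the USB1 mutant, and WT. In K562 they were USB1 knockout (KO) cells with a short hairpin against PARN (shPARN), control cells with shPARN, USB1 KO cells, and control cells. USB1 and PARN are 3'-5' exonucleases that can remove adenosines from RNA ends, and PAPD5 is a poly(A) polymerase that adds them.

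All 4 hESC groups other than WT carried the mutant USB1, a small deletion made with CRISPR-Cas9 in cells picked by hand, so effects of the picked cells and of the mutation cannot be told apart. The transgene and the PAPD5 hairpin were inserted at AAVS1, and the doxycycline dose of these libraries is not given in the sources used here. The K562 KO was made with Cas9 and single-cell cloning. The labels name no group with a control hairpin, so knockdown and the mere presence of a hairpin are confounded in the shPARN and shPAPD5 groups.

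The cluster is transcribed as a polycistronic primary RNA from the host gene MIR17HG, which MYC and E2F factors activate, and is widely known as an oncogenic miRNA cluster in blood cancers and lymphoma. Drosha cuts the hairpins out of the shared transcript, Dicer cuts each hairpin into a 5p and a 3p arm, and Argonaute usually keeps the guide arm. Guides of the miR-17 and miR-19 families repress, among others, the cell cycle inhibitor CDKN1A and the proapoptotic gene BCL2L11 (BIM). Since the members leave the same transcript, apart from the chromosome X copies of miR-19b-3p and miR-92a-3p, differences among them within a library show how unequally the mature arms were recovered, not how often the gene was transcribed.

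In GRCh38.p14 the 6 hairpins lie on the plus strand of chromosome 13 within 787 bases, from MIR17 (chr13:91350605-91350688) through MIR18A, MIR19A, MIR20A and MIR19B1 to MIR92A1 (chr13:91351314-91351391). MIR17HG, a long noncoding RNA gene at chr13:91347686-91397592 in GENCODE 44, has 16 annotated transcripts. Each hairpin lies within an exon of 3 of them and within an intron of 8. The mature sequences below are from RefSeq (GRCh38.p14), where all 8 names matched, and are written 5′ to 3′ with the seed, bases 2 to 8, in capitals because the seed sets which messages a miRNA pairs with:
miR-17-5p: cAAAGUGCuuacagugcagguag
miR-20a-5p: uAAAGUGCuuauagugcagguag
miR-18a-5p: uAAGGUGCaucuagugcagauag
miR-19a-3p: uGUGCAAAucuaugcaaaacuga
miR-19b-3p: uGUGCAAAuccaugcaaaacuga
miR-92a-3p: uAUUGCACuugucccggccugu
miR-17-3p: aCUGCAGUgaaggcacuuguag
miR-18a-3p: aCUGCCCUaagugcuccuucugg

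The 8 arms held 6 different seeds. miR-17-5p and miR-20a-5p shared theirs and differed by C1U and C12U, with positions counted from 1 at the 5′ end and the first-named miRNA's base first. miR-19a-3p and miR-19b-3p shared theirs and differed by U11C alone. The seeds of the 3p arms miR-17-3p and miR-18a-3p were found in 0 other miRNAs of the reference table. GC content ran from 34.8% in miR-19a-3p to 56.5% in miR-18a-3p.

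The cluster has close relatives, of which 4 are printed to show what the counts must tell apart, together with 2 passenger arms of the cluster that appear in the results:
miR-106a-5p: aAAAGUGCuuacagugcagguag
miR-20b-5p: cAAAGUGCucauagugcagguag
miR-18b-5p: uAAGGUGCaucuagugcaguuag
miR-363-3p: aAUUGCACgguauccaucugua
miR-19b-1-5p: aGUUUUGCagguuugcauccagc
miR-92a-1-5p: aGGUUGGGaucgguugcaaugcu

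miR-106a-5p differed from miR-17-5p by C1A only and miR-18b-5p from miR-18a-5p by A20U only, both from the miR-106a-363 cluster on chromosome X. Reads of these pairs that do not cover the differing base could have been counted for either, and the sources used here do not say how such reads were assigned, so the values of miR-17-5p and miR-18a-5p are uncertain to that extent. miR-19b-3p and miR-92a-3p are encoded by the chromosome 13 hairpin and also by an identical mature sequence on chromosome X, and their counts join both copies.

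Depth, as the sum of miRNA counts, was 12258450 to 35734485 in the hESC libraries. Among the K562 libraries it was 1530929, in USB1 KO library 3, to 13183152. All 8 members were listed in all 27 libraries and passed the filter on low counts in every fit. The least counted, miR-17-3p, had 128 to 2033 counts a library and the most counted, miR-92a-3p, 135857 to 1030342. The 8 stem cell markers (of the miR-302 and miR-371 families) were all above 0 in each hESC library, with sums of 178501 to 397742 CPM (counts scaled to 1000000 per library). In K562 their sums were 0.653 to 829 CPM, and the 2 highest were those of control libraries 1 and 2. The 5 blood markers (miR-144-3p, miR-451a, miR-486-5p, miR-223-3p, miR-142-3p) summed to 92.3 to 337 CPM in hESC libraries and 6106 to 10667 CPM in K562 libraries.

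miR-92a-3p was by far the most abundant member in both lines, followed by miR-20a-5p and miR-17-5p, and the other 5 members were each more than 10 times lower than miR-92a-3p in every library. Levels are CPM after TMM scaling within a line. They compare arms of 22 or 23 bases by their reads, and since adaptors ligate unequally to different ends they are not molar amounts. In WT hESCs the means were 29382 ± 4203 CPM for miR-92a-3p, 3921 ± 350 for miR-20a-5p, 2477 ± 204 for miR-17-5p, 117 ± 15 for miR-19b-3p, 98.0 ± 3.71 for miR-18a-3p, 65.9 ± 4.56 for miR-18a-5p, 42.1 ± 10.1 for miR-19a-3p and 11.8 ± 0.624 for miR-17-3p (SD, n = 3). The libraries of neighbours in this order did not overlap, except miR-19b-3p (100 to 128 CPM) with miR-18a-3p (95.1 to 102 CPM). In control K562 cells miR-92a-3p averaged 84868 ± 2564 CPM, miR-20a-5p 16050 ± 2201 and miR-17-5p 9404 ± 1056 (SD, n = 3). Next came miR-19a-3p at 823 ± 313 CPM, which stood far lower in the order of WT hESCs. The libraries of miR-19a-3p, miR-19b-3p, miR-18a-3p and miR-18a-5p overlapped between neighbours there (504 to 1130, 385 to 574, 387 to 427 and 333 to 397 CPM), and miR-17-3p was lowest at 91.8 ± 11.5 CPM.

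**Figure D1:**
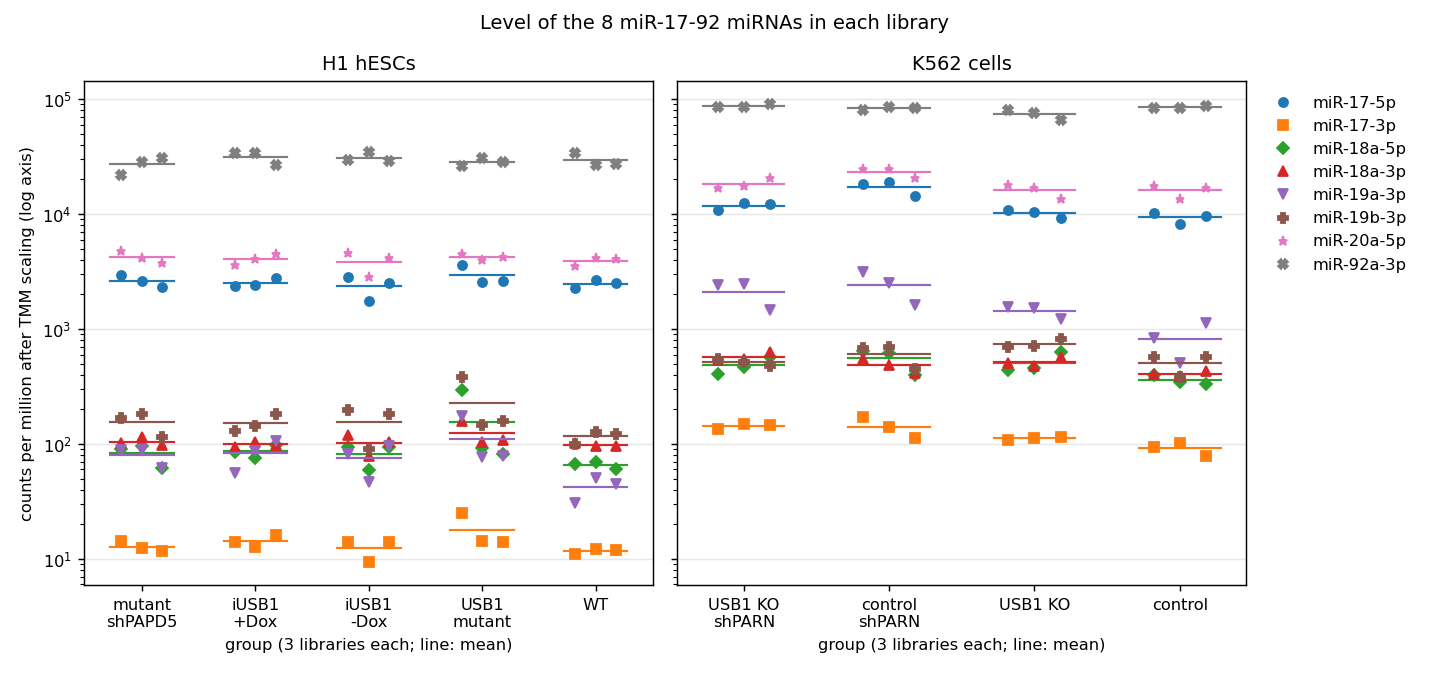
Level of the 8 cluster miRNAs in every library, in CPM after TMM scaling within each line on a log axis, with groups along the x axis, a point per library and a line at the group mean. miR-92a-3p lies highest and miR-17-3p lowest in all 27 libraries, and in USB1 mutant hESCs library 1 stands above the other 2 for miR-18a-5p (294 CPM), miR-19a-3p (176 CPM) and miR-19b-3p (380 CPM).

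The cluster took 3.11 to 4.28% of all miRNA counts in hESC libraries and 10.4 to 12.8% in K562 libraries. miR-92a-3p alone made up 72.9 to 87.5% of the cluster's counts in hESC libraries. In K562 libraries it made up 62.7 to 78.0%. It ranked 4 to 7 among all miRNAs of an hESC library and 3 in every K562 library. Among hESC groups the summed level of the 8 averaged 34353 ± 3745 CPM with shPAPD5, 38442 ± 3424 in iUSB1 +Dox, 37485 ± 1744 in iUSB1 -Dox, 36400 ± 1397 in the USB1 mutant and 36115 ± 3642 in WT (SD, n = 3 each), and neighbours in the order of these means overlapped. Among K562 groups it averaged 120998 ± 5099 CPM in KO shPARN, 127720 ± 6233 in control shPARN, 103689 ± 10574 in KO and 112516 ± 5023 in control cells (SD, n = 3 each). Ordered by mean, KO overlapped with control, and KO shPARN with control shPARN, while the libraries of KO shPARN (117320 to 126818 CPM) lay just above those of control (107051 to 116932 CPM). Since miR-92a-3p dominates it, the sum says little of the other 7.

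The arms of the 6 hairpins were kept very unequally, except in MIR18A. For MIR17, counts of the 5p arm were at the median 191 and at most 216 times those of the 3p arm in hESCs, and 79.6 to 134 times in K562. For MIR20A the 5p arm was 422 to 1426 times the 3p arm in hESCs and 484 to 1278 times in K562, and the 3p arm of MIR92A1 was 303 to 541 times its 5p arm in hESCs and 129 to 317 times in K562. The 5p and 3p arms of MIR18A had similar counts, with a ratio of 0.628 to 1.85 in hESCs, the highest in USB1 mutant library 1, and 0.768 to 1.27 in K562. The passenger miR-19a-5p was listed at 0 to 5 counts in the 9 hESC libraries and at 2 to 30 counts in the 12 K562 libraries whose tables list it. For miR-19b-3p the chromosome 13 passenger miR-19b-1-5p was 29.5 to 75.2 times lower in hESCs and 11.5 to 21.9 times lower in K562.

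The passenger arms differ between the chromosome 13 and the X copies and so can be read apart. miR-92a-1-5p from chromosome 13 had 6.92 to 16.9 times the counts of miR-92a-2-5p from the X copy in the 15 hESC libraries. In K562 miR-92a-2-5p was listed in 0 libraries. The X passenger miR-19b-2-5p was listed at 0 to 2 counts in 6 hESC and 3 K562 libraries. A passenger's count depends on how well it is kept, so these ratios are not the shares of the joined miR-92a-3p or miR-19b-3p counts that each copy gave.

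Members also varied to different degrees. Over the 15 hESC libraries miR-19b-3p followed the mean log2 CPM of the other 7 most closely, with a Pearson r of 0.982, and miR-17-3p gave 0.936, miR-20a-5p 0.667 and miR-92a-3p -0.551. Over the 12 K562 libraries these were 0.344 for miR-19b-3p, 0.789 for miR-17-3p, 0.726 for miR-20a-5p and -0.017 for miR-92a-3p. The values describe libraries that share their group, depth and scaling. miR-17-5p and miR-20a-5p were close to each other in both lines (r of 0.893 over 15 and 0.95 over 12 libraries). In hESCs miR-92a-3p ran against both (-0.727 and -0.77), as in iUSB1 -Dox library 2, which had the highest miR-92a-3p of its line (34442 CPM) and the lowest miR-17-5p (1766 CPM) and miR-20a-5p (2850 CPM).

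USB1 mutant hESCs were compared with WT to ask which cluster miRNAs differed when USB1 was mutated. miR-19a-3p, a guide of the miR-19 family, was higher in the mutant. The other low members leaned the same way without passing the test, and the abundant miR-17-5p, miR-20a-5p and miR-92a-3p lay close to WT. In bulk RNA a higher level in each cell cannot be told apart from more cells of a type that makes it. miR-19a-3p had 176, 77.7 and 78.0 CPM in the mutant libraries, against 30.9, 50.4 and 45.1 CPM in WT. All mutant libraries lay above all WT libraries, and mutant library 1 was more than 2 times the other mutant libraries. The log2 fold change was 1.39 (SE 0.35, edgeR adjusted p = 0.0231). That was 1 of 8 members called, where 7.41% of the 998 miRNAs tested were called.

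miR-18a-5p had 294, 92.6 and 82.5 CPM in the mutant, against 67.5, 69.5 and 60.8 CPM in WT, and its log2 fold change of 1.25 (SE 0.38) did not pass (edgeR adjusted p = 0.0573). miR-19b-3p had 380, 147 and 159 CPM, against 100, 128 and 122 CPM in WT, with 0.97 (SE 0.34, adjusted p = 0.0991). Here too the groups did not overlap, and mutant library 1 stood far above libraries 2 and 3. The same held for the 3p arms miR-17-3p at 0.59 and miR-18a-3p at 0.34 (adjusted p of 0.144 and 0.284). So 5 members had mutant libraries wholly above WT, where 25.9% of all miRNAs tested did not overlap in either direction. The values for miR-17-5p, miR-20a-5p and miR-92a-3p were 0.24, 0.12 and -0.04 with SEs of 0.19, 0.17 and 0.16, and their groups overlapped. The median over the 8 was 0.46, beside 0.04 over all miRNAs tested. Of all calls 39.2% were higher in the mutant, and 25.8% with library totals in place of TMM.

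These values rested in part on mutant library 1. Without it miR-19a-3p gave 0.88 (edgeR adjusted p = 0.119), miR-18a-5p 0.40 and miR-19b-3p 0.38, and 0 of 8 members were called, beside 3.65% of the 1040 miRNAs then tested. The call was also lost without WT library 1 (1.19, adjusted p = 0.0892) or WT library 3 (1.41, adjusted p = 0.0632), while 3 members were called without mutant library 2 and 2 without mutant library 3. With only the groups compared in the fit miR-19a-3p gave 1.38 (adjusted p = 0.144). Library 1 held the highest summed stem cell markers of the series, 397742 CPM, against 235724 and 230763 CPM in mutant libraries 2 and 3 and 178501 to 192802 CPM in WT. Their part in the result was not tested. Across the 8 members, which share their libraries, the fold change had a Pearson r of -0.63 with GC content. Over all comparisons this r ran from -0.78 (shPAPD5 against WT) to 0.83 (the interaction of USB1 KO and shPARN in K562). In library 1 itself the Spearman correlation of GC content with the deviation from the median of all hESC libraries was -0.06, over the 89% of 419 abundant miRNAs that had a sequence. Among hESC libraries it ran from -0.18 in iUSB1 +Dox library 3 to 0.25 in iUSB1 -Dox library 2. The part of GC content in the result was not tested.

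The 3 groups derived from the mutant gave smaller differences from WT for every member but miR-92a-3p, all short of the threshold. miR-19a-3p was the member with the largest difference in each. It had 88.7, 88.4 and 61.5 CPM with shPAPD5, a mean of 82.5 ± 24.9 CPM in iUSB1 +Dox (SD, n = 3, lowest 56.1 CPM) and 82.3, 47.0 and 95.3 CPM in iUSB1 -Dox, against 30.9, 50.4 and 45.1 CPM in WT. Libraries with shPAPD5 and +Dox lay above WT, and -Dox library 2 lay within the WT range. The log2 fold changes were 0.92 with shPAPD5 (edgeR adjusted p = 0.269), 0.97 with +Dox (adjusted p = 0.0981) and 0.83 with -Dox (adjusted p = 0.207). In these comparisons 0 of 8 members were called. Of all 998 miRNAs 0% were called with shPAPD5 (130 at an unadjusted p under 0.05, and 26 by DESeq2), 8.22% with +Dox and 4.31% with -Dox. These comparisons share the WT libraries with that of the mutant. The other 7 members differed from WT by -0.12 to 0.42 on the log2 scale over the 3 comparisons. With +Dox 4 members lay wholly above WT (miR-17-3p, miR-18a-5p, miR-19a-3p and miR-19b-3p), where 30.6% of all miRNAs did not overlap in either direction. With shPAPD5 1 member did, beside 19.2%, and with -Dox 0, beside 23%.

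Comparisons among the mutant groups asked whether USB1 induction or PAPD5 knockdown moved the cluster. With +Dox against -Dox the 8 members differed by -0.04 to 0.21, with SEs of 0.16 to 0.37 and an edgeR adjusted p of 0.994 for each. With shPAPD5 against the mutant they differed by -0.92 (miR-18a-5p) to -0.01 (miR-20a-5p), with a lowest adjusted p of 0.35. With -Dox, which holds the uninduced transgene, against the mutant they differed by -0.93 (miR-18a-5p) to 0.11 (miR-92a-3p), with a lowest adjusted p of 0.537. Both comparisons contain mutant library 1. edgeR called 0 of 8 members and 0% of all miRNAs in each of the 3 comparisons. The counts at an unadjusted p under 0.05 were 45 for +Dox against -Dox, 116 for shPAPD5 against the mutant and 89 for -Dox against the mutant, and DESeq2 called 1, 8 and 2 miRNAs. Against the mutant, miR-18a-5p had an SE of 0.38 in both comparisons. A fall as large as its 1.25 between mutant and WT is not excluded there. With +Dox against -Dox miR-19a-3p gave 0.14 (SE 0.34) and miR-18a-5p 0.07 (SE 0.37). These SEs leave room for changes smaller than the 1.39 and 1.25 seen between mutant and WT.

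In K562 cells the comparison of USB1 KO with control asked the same question in a blood line. No member passed the test. miR-19a-3p again gave the largest value, with 1558, 1526 and 1217 CPM in KO, against 836, 504 and 1130 CPM in control. KO libraries all lay above control, by a small margin between KO library 3 and control library 3. The log2 fold change was 0.80 (SE 0.31, edgeR adjusted p = 0.192). miR-19b-3p gave 0.54 (SE 0.20, adjusted p = 0.165) and miR-18a-5p 0.50 (SE 0.21, adjusted p = 0.226). The 3p arms of MIR18A and MIR17 gave 0.33 for miR-18a-3p and 0.28 for miR-17-3p. miR-92a-3p had 81113, 75442 and 65950 CPM in KO, against 83244, 83536 and 87824 CPM in control, a difference of -0.19 (SE 0.13, adjusted p = 0.425). Libraries of 5 members lay wholly above and those of miR-92a-3p wholly below control, where 29.5% of all miRNAs did not overlap in either direction. Over the 881 miRNAs tested 5.11% were called, and the member with the smallest adjusted p was miR-19b-3p.

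In control K562 cells shPARN was compared with no hairpin, and here 2 members rose, miR-17-5p and miR-19a-3p. miR-17-5p, the guide that names the cluster, had 18370, 18834 and 14298 CPM with shPARN, against 10293, 8237 and 9683 CPM without. The groups were well apart, and the log2 fold change was 0.87 (SE 0.15, edgeR adjusted p = 0.0132). miR-19a-3p had 3154, 2499 and 1606 CPM with shPARN, against 836, 504 and 1130 CPM, a log2 fold change of 1.55 (SE 0.32, adjusted p = 0.0298). Its libraries varied widely within both groups but did not overlap between them. That made 2 of 8 members called, where 1.48% of all 881 miRNAs were called.

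miR-20a-5p, which shares the miR-17-5p seed, had 24661, 24624 and 20487 CPM with shPARN, against 17713, 13554 and 16883 CPM in control. Its groups did not overlap, and its log2 fold change of 0.54 did not pass. miR-92a-3p, at the other end of the cluster, had 81232, 84981 and 83040 CPM with shPARN, against 83244, 83536 and 87824 CPM, a difference of -0.03 with overlapping groups. Libraries of 4 members lay wholly above control, miR-17-3p being the other, where 22.5% of all miRNAs did not overlap in either direction. The median over the 8 was 0.58, beside -0.03 over all miRNAs. Scaling to library totals moved the median of all miRNAs to -0.29 and that of the members to 0.31, and in both scalings 7 of 8 members lay above the median of all. With that scaling 32% of all calls were higher, against 84.6% with TMM.

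The calls depended on single libraries. Without control library 2, which was lowest for both, miR-17-5p gave 0.79 (edgeR adjusted p = 0.0645) and miR-19a-3p 1.31 (adjusted p = 0.0907), so that 0 members were called. The miR-19a-3p call was also lost without control library 1 (1.57, adjusted p = 0.109), shPARN library 1 (1.3, adjusted p = 0.116) or shPARN library 2 (1.55, adjusted p = 0.0877), and with only these 2 groups in the fit (1.55, adjusted p = 0.107). Without shPARN library 3 there were 4 calls, with miR-17-3p at 0.76 and miR-18a-5p at 0.81 added. Marker sums also differed without overlap between these groups. The 5 fibroblast markers were miR-199a-3p, miR-199a-5p, miR-214-3p, miR-143-3p and miR-145-5p. They summed to 328 to 469 CPM with shPARN, against 1106 to 1617 CPM in control. The 5 blood markers summed to 6903 to 7354 CPM with shPARN, against 8199 to 10667 CPM in control. The part of both marker sums in the result was not tested.

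**Figure D2:**
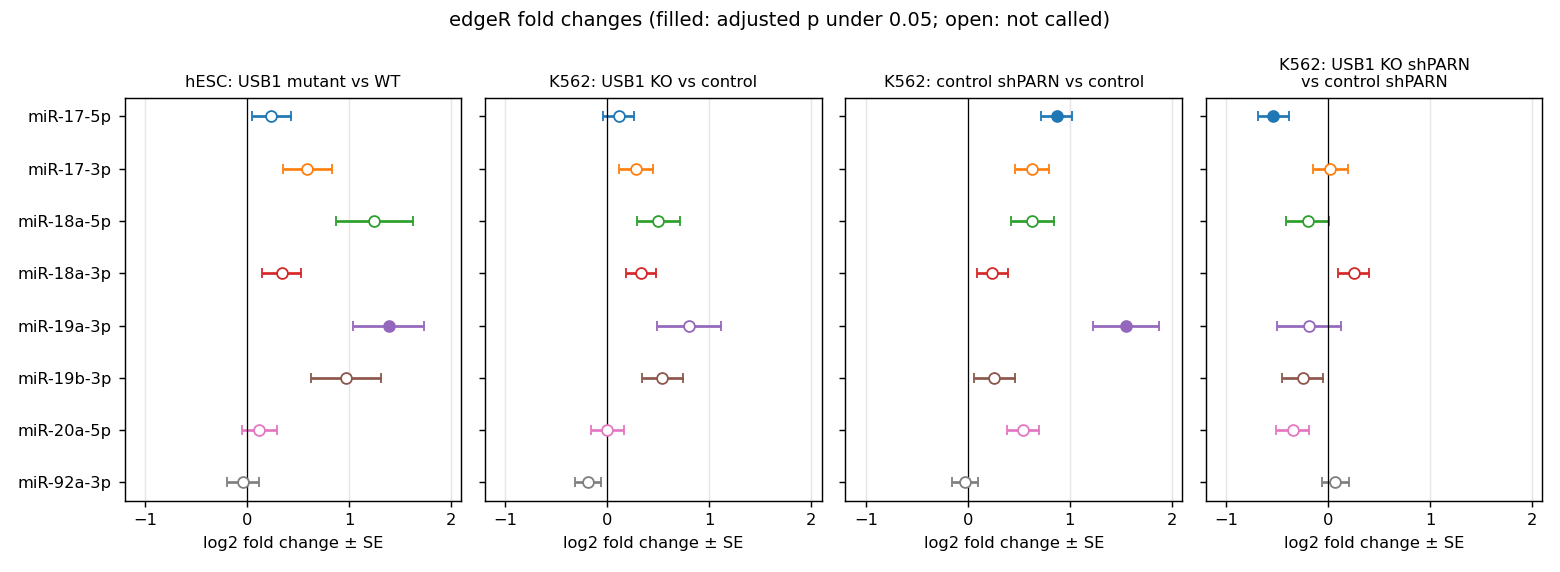
edgeR log2 fold changes of the 8 miRNAs with their SE in 4 comparisons, filled where the adjusted p is under 0.05. Filled points are miR-19a-3p in USB1 mutant hESCs (1.39), miR-17-5p (0.87) and miR-19a-3p (1.55) in control shPARN cells, and miR-17-5p in KO shPARN against control shPARN cells (-0.54).

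In USB1 KO cells shPARN was compared with KO alone. No member passed the test, beside 14.8% of all miRNAs called. miR-19b-3p gave the lowest adjusted p. It had 548, 517 and 477 CPM with shPARN, against 698, 706 and 817 CPM in KO, and its groups did not overlap. The log2 fold change was -0.53 (SE 0.20, edgeR adjusted p = 0.0991). miR-19a-3p, which shares its seed, had 2424, 2464 and 1460 CPM with shPARN, against 1558, 1526 and 1217 CPM, a value of 0.56 (SE 0.31, adjusted p = 0.27) with overlapping groups. The 2 values have opposite signs, and their difference was not tested. miR-17-5p differed by 0.22, miR-20a-5p by 0.19 and miR-92a-3p by 0.23. Libraries of 3 members, miR-17-5p, miR-17-3p and miR-92a-3p, lay wholly above KO and those of 1, miR-19b-3p, wholly below. Of all miRNAs 29.4% did not overlap in either direction. With library totals the miR-19b-3p value was -0.81 (adjusted p = 0.0243) and the median of all miRNAs was -0.14. With TMM that median was 0.11. Of all calls 61.5% were higher with TMM and 28% with library totals. A filter at 10 CPM gave -0.58 (adjusted p = 0.0493).

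KO shPARN cells were then compared with control shPARN cells, the USB1 KO comparison with PARN knocked down in both. miR-17-5p was lower, with 10809, 12377 and 12312 CPM in KO shPARN, against 18370, 18834 and 14298 CPM in control shPARN. The same control shPARN libraries gave the miR-17-5p call against control, so these calls are not independent. Mean miR-17-5p was 11833 CPM in KO shPARN, 10155 CPM in KO and 9404 CPM in control. The log2 fold change was -0.54 (SE 0.15, edgeR adjusted p = 0.041), and 1 of 8 members was called where 9.19% of all miRNAs were. miR-20a-5p had 16835, 17578 and 20429 CPM in KO shPARN, against 24661, 24624 and 20487 CPM in control shPARN. Its libraries just failed to overlap, and it did not pass. These were the 2 members that did not overlap, and 30.5% of all miRNAs did not. The miR-17-5p call was lost without control shPARN library 1 (-0.49, adjusted p = 0.0876) or 2 (-0.51, adjusted p = 0.0884), without KO shPARN library 1 (-0.51, adjusted p = 0.0798) or 2 (-0.56, adjusted p = 0.0547), with library totals (-0.46, adjusted p = 0.0576), and with only these 2 groups in the fit (-0.55, adjusted p = 0.0525). The 5 fibroblast markers summed to 12485, 1203 and 426 CPM in KO shPARN libraries 1, 2 and 3, against 328 to 469 CPM in control shPARN libraries. They include miR-199a-3p, which the paper found decreased in USB1 mutant cells, and their part in the result was not tested.

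Whether shPARN acted differently in KO and control cells was tested as the interaction of both. edgeR called 0 of 8 members, beside 1.82% of all miRNAs. The estimates were -0.65 for miR-17-5p (SE 0.21, adjusted p = 0.146), -0.99 for miR-19a-3p (SE 0.44, adjusted p = 0.25), -0.79 for miR-19b-3p (SE 0.28, adjusted p = 0.179) and -0.70 for miR-18a-5p (SE 0.30, adjusted p = 0.239), where a negative value means that the shPARN effect was lower in KO than in control cells. DESeq2 called miR-17-5p (-0.70, adjusted p = 0.0434). Of all interaction calls 75% were positive, and 57.1% with library totals. The difference between hESCs and K562 in the effect of USB1 loss was called for 0 members, beside 3.14% of all miRNAs. It was largest for miR-18a-5p at 0.86 (SE 0.53, adjusted p = 0.56) and 0.69 for miR-19a-3p (SE 0.52, adjusted p = 0.663). Of all calls for this difference 75% were positive, and 61.5% with library totals, which moved the median of all miRNAs to -0.04, against 0.19 with TMM. That miR-19a-3p passed in hESCs and not in K562 is therefore not a difference shown between the lines.

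Ratios of counts within a library do not depend on scaling and show the relative yield of the arms from the shared transcript. Each member was set against miR-17-5p in the same library, and miR-18a-3p also against miR-18a-5p, which gave 8 ratios in 12 comparisons. By two-sided exact permutation 36 of the 96 cases reached 0.1, the smallest p that 3 libraries against 3 can give, which is 0.267 after Benjamini-Hochberg adjustment, so none passed. Of all miRNAs set against miR-17-5p in the same comparisons, 28.9% likewise did not overlap. The comparisons share libraries, and all ratios but that of miR-18a-3p to miR-18a-5p share the denominator.

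In the USB1 mutant the log2 ratio of miR-19a-3p to miR-17-5p was -4.82 ± 0.39, against -5.90 ± 0.25 in WT (SD, n = 3 each), a difference of 1.08. The ratio of miR-18a-5p was -4.46 ± 0.73 in the mutant, against -5.23 ± 0.15, and that of miR-19b-3p was -3.80 ± 0.47, against -4.41 ± 0.08. The ratio of miR-92a-3p was 3.31 ± 0.40 in the mutant, against 3.56 ± 0.32, with overlapping libraries. The arm ratio of MIR18A, miR-18a-3p to miR-18a-5p, was -0.11 ± 0.68 in the mutant, against 0.57 ± 0.09 in WT, and the libraries did not overlap. In all 5 of 8 ratios did not overlap, beside 23.9% of all miRNAs set against miR-17-5p. The derived groups shared the miR-19a-3p shift from WT without overlap, by 0.93 with +Dox, 0.88 with -Dox and 0.84 with shPAPD5. The MIR18A arm ratio differed by -0.37 with +Dox and -0.26 with -Dox without overlap, and by -0.21 with shPAPD5 with overlap. With +Dox 5 of 8 ratios did not overlap with WT (29.5% of all miRNAs), with -Dox 4 (16.6%) and with shPAPD5 2 (16.6%).

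**Figure D3:**
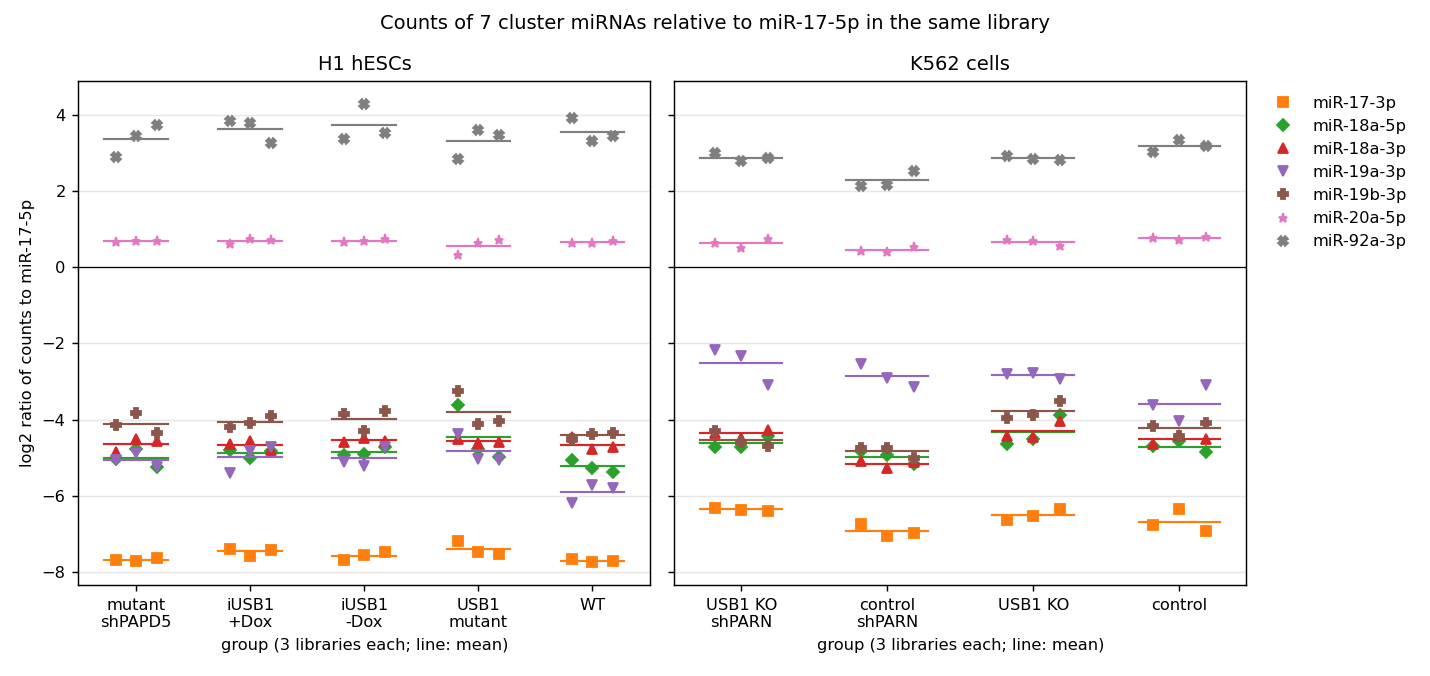
log2 ratio of the counts of 7 cluster miRNAs to miR-17-5p in the same library, with groups along the x axis, a point per library and a line at the group mean. The ratio of miR-20a-5p stays between 0.31 and 0.80 in all libraries, and that of miR-19a-3p runs from -6.19 to -4.37 in hESCs and from -4.03 to -2.16 in K562.

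With shPARN in control K562 cells the ratio of miR-92a-3p to miR-17-5p was 2.29 ± 0.22, against 3.18 ± 0.16 without (SD, n = 3 each). The ratios of miR-20a-5p (0.44 ± 0.07, against 0.77 ± 0.04), miR-18a-3p (-5.15 ± 0.10, against -4.52 ± 0.12) and miR-19b-3p (-4.83 ± 0.15, against -4.22 ± 0.18) were lower as well. These were the 4 of 8 that did not overlap, and 63.1% of all miRNAs set against miR-17-5p did not, with the denominator itself among the calls. In KO shPARN the ratio of miR-92a-3p was 2.88 ± 0.11, against 2.29 ± 0.22 in control shPARN, and 6 of 8 ratios did not overlap, beside 42.3% of all miRNAs. The share of miR-92a-3p in the cluster's counts was accordingly 62.7 to 68.7% in control shPARN, against 73.3 to 78.0% in control.

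Between the lines, WT hESCs had less of all 8 members than control K562 cells, and the paralogous cluster on chromosome X showed the reverse. On the scale of a joint fit of both lines miR-19a-3p had 52.3, 89.7 and 79.9 CPM in WT hESCs, against 817, 439 and 1053 CPM in control K562, a log2 fold change of -3.38 (SE 0.40, edgeR adjusted p = 2.67e-06). miR-17-3p followed at -2.04 (SE 0.26) and miR-18a-5p at -1.53 (SE 0.38). miR-19b-3p gave -1.22, miR-18a-3p -1.15, miR-20a-5p -1.12 and miR-17-5p -1.01. miR-92a-3p had 57996, 47521 and 48127 CPM in WT hESCs, against 81328, 72742 and 81841 CPM in control K562, a value of -0.62 (SE 0.20, adjusted p = 0.0129). All 8 were called, where 64.3% of the 892 miRNAs tested were. In all 8 the libraries did not overlap, where 71.9% of all miRNAs did not overlap in either direction. The values of miR-19b-3p and miR-92a-3p join the chromosome 13 and X copies, and how much each copy gave in either line was not measured.

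The miR-92a-3p call was lost with size factors (-0.29, edgeR adjusted p = 0.139) and by DESeq2 (-0.29, adjusted p = 0.126), and without WT library 2 (-0.38, adjusted p = 0.186) or 3 (-0.39, adjusted p = 0.16), while the other 7 kept theirs in every alternative. The median of all miRNAs was -0.19 with TMM, 0.13 with size factors and -0.66 with library totals, and all 8 members lay below it in each. The share of all calls that were higher was 47.2%, 57% and 36% with these scalings. The joint table held 63.5 to 70.7% of the counts of WT hESC libraries and over 99.8% of those of control K562, because miRNAs not listed in all 4 tables were left out. Relative to miR-17-5p, miR-19a-3p stood at -5.90 ± 0.25 in WT hESCs, against -3.58 ± 0.47 in control K562 (SD, n = 3 each). miR-92a-3p stood at 3.56 ± 0.32, against 3.18 ± 0.16, with overlapping libraries.

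**Figure D4:**
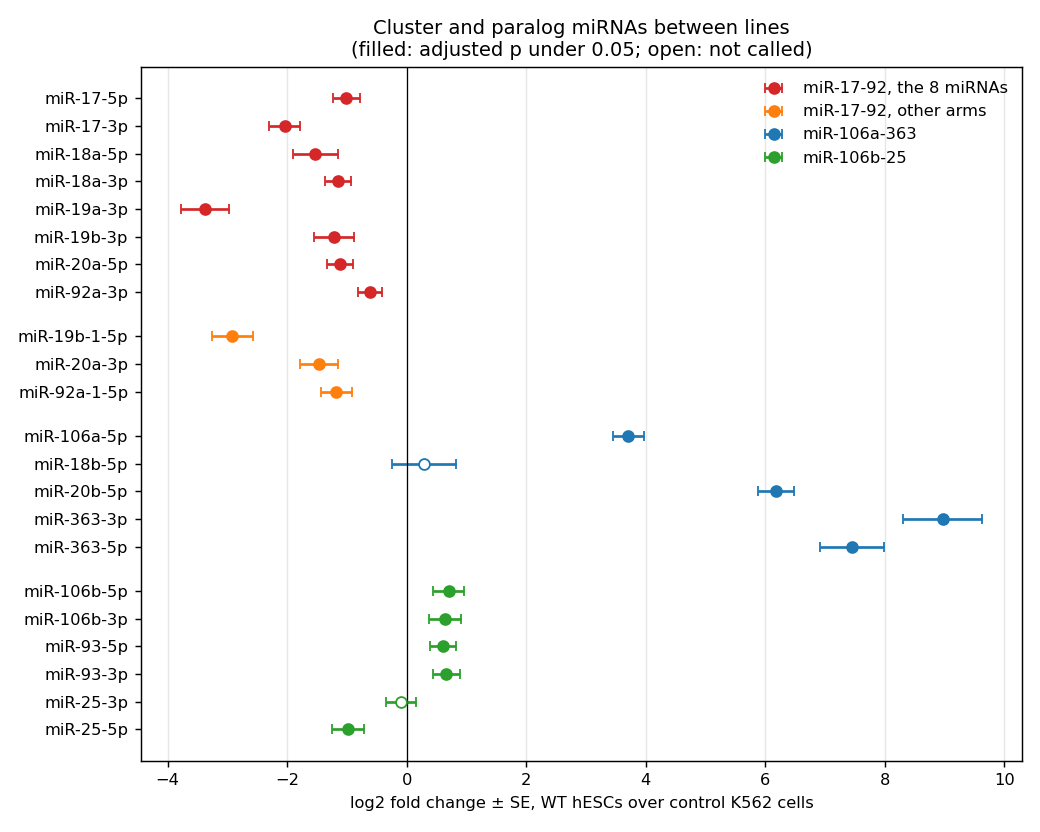
edgeR log2 fold changes with their SE between WT hESCs and control K562 cells for the 8 miRNAs, 3 other arms of the cluster and the tested arms of both paralogous clusters, filled where the adjusted p is under 0.05. All 8 lie left of 0, from -3.38 to -0.62, and 4 of the 5 miR-106a-363 arms lie at 3.71 to 8.97. Among these 4, miR-363-5p (0.225 CPM in control K562) passed the filter only through the hESC libraries.

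The other arms of the hairpins were counted as a list. In WT hESCs against control K562 all 3 tested arms were lower (miR-19b-1-5p -2.92, miR-20a-3p -1.47, miR-92a-1-5p -1.18), with a median of -1.47 beside -0.19 over all miRNAs, of which 64.3% were called and 34% were lower. In USB1 mutant hESCs 1 of 3 rose, miR-19b-1-5p, at 7.47, 4.12 and 2.92 CPM in the mutant against 1.57, 1.71 and 2.04 CPM in WT, on 27 to 29 counts a WT library (log2 fold change 1.45, edgeR adjusted p = 0.0111), where 7.41% of all miRNAs were called and 2.91% were higher. Without mutant library 1 it gave 1.0 (adjusted p = 0.0576). miR-20a-3p gave 1.12 (adjusted p = 0.0844) and miR-92a-1-5p -0.05.

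In K562 the arm miR-92a-1-5p rose in KO shPARN cells while its partner miR-92a-3p did not pass. It had 665, 610 and 455 CPM in KO shPARN, against 309, 288 and 211 CPM in KO (log2 fold change 1.10, edgeR adjusted p = 0.00417). Against control shPARN, at 428, 308 and 332 CPM, the value was 0.70 (adjusted p = 0.0409). This was 1 of 4 arms tested in each comparison, where 14.8% of all miRNAs were called against KO and 9.19% against control shPARN. KO shPARN libraries of miR-92a-1-5p lay above both, where 29.4% of all miRNAs did not overlap against KO and 30.5% against control shPARN. miR-92a-3p differed by 0.23 from KO and by 0.07 from control shPARN. Its KO shPARN libraries (84749 to 90784 CPM) also lay wholly above those of KO (65950 to 81113 CPM). The difference between the 2 arms was not tested. In KO against control and in control shPARN against control 0 of the 4 arms tested in K562 passed, with medians of 0.58 and 0.55 beside -0.02 and -0.03 over all miRNAs.

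The miR-106a-363 cluster on chromosome X, a copy of the same ancestral cluster, was abundant in WT hESCs and low in control K562 cells. On the joint scale miR-363-3p, which carries the miR-92a-3p seed, averaged 16722 ± 5378 CPM in WT hESCs and 33.4 ± 22.1 CPM in control K562 (SD, n = 3 each), a log2 fold change of 8.97. miR-20b-5p averaged 2908 ± 291 CPM in WT hESCs and 40.1 ± 12.3 CPM in control K562, and miR-106a-5p 1076 ± 136 CPM and 82.2 ± 18.3 CPM. Of 5 arms tested 4 were higher in WT hESCs and 0 lower, with miR-18b-5p at 0.29 (edgeR adjusted p = 0.655). The 4 include miR-363-5p, which averaged 37.5 CPM in WT hESCs and 0.225 CPM in control K562. It passed the filter only through the hESC libraries, so its direction was given in advance. Of all miRNAs 64.3% were called in this comparison and 30.4% were higher. Within the K562 scaling miR-363-3p had 27.7 to 35.9 CPM in the KO libraries, whose stem cell markers summed to 0.653 to 4.75 CPM. It had 46.2 and 54.4 CPM in control libraries 1 and 2, whose markers summed to 782 and 829 CPM, and 8.50 CPM in control library 3, whose markers summed to 8.71 CPM. The part of the markers' source in these values was not tested.

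In the USB1 mutant 2 of the 9 tested arms of the X cluster rose, where 7.41% of all miRNAs were called and 2.91% were higher. miR-363-3p had 22798, 18651 and 16546 CPM in the mutant, against 6204, 11189 and 11163 CPM in WT, a log2 fold change of 1.02 (edgeR adjusted p = 0.0111), and without mutant library 1 it gave 0.88 (adjusted p = 0.0485). miR-18b-5p, near identical to miR-18a-5p, had 35.8, 10.1 and 7.50 CPM in the mutant, against 5.53, 5.76 and 6.56 CPM in WT. Its log2 fold change of 1.58 passed (adjusted p = 0.0352) and was 0.56 without mutant library 1 (adjusted p = 0.285). The list had a median of 0.61 beside 0.04 over all miRNAs. In the K562 comparisons 0 of the 4 tested arms passed.

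The miR-106b-25 cluster, in an intron of MCM7 on chromosome 7, gave few calls in comparisons within a line. In the USB1 mutant 0 of 6 arms passed, with a median of 0.03, and in USB1 KO K562 cells 0 of 6, with a median of -0.18. In KO shPARN against KO 1 of 6 rose, miR-106b-3p at 0.54 (edgeR adjusted p = 0.0315), where 14.8% of all miRNAs were called and 9.08% were higher. Between the lines 4 arms were higher in WT hESCs, 1 was lower (miR-25-5p, -0.99) and miR-25-3p gave -0.10, with a median of 0.62, where 64.3% of all miRNAs were called.

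By seed, miR-17-5p and miR-20a-5p have 6 relatives in the reference table (miR-20b-5p, miR-93-5p, miR-106a-5p, miR-106b-5p, miR-519d-3p and miR-526b-3p). In WT hESCs all 6 were higher than in control K562, with a median of 4.94, where 30.4% of all miRNAs were higher, while both members were lower. Of the 6, miR-519d-3p and miR-526b-3p averaged 0.0897 and 0.142 CPM in control K562 on the joint scale. They passed the filter only through the hESC libraries, so their direction was given in advance. In the USB1 mutant 0 of 6 passed (median 0.36). The seed of miR-92a-3p is carried by miR-25-3p, miR-32-5p, miR-92b-3p, miR-363-3p and miR-367-3p, of which 2 of 5 rose in the mutant, where 2.91% of all miRNAs did. These were miR-363-3p and miR-32-5p, the second at 240, 94.9 and 81.4 CPM against 40.1, 65.4 and 56.7 CPM in WT (log2 fold change 1.36, edgeR adjusted p = 0.0352, and 0.70 with adjusted p = 0.252 without mutant library 1). miR-18a-5p has miR-18b-5p and miR-4735-3p as relatives, and the seeds of the other members have none in the table.

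The non-member miRNAs most like the cluster were sought in each line by the Pearson r of their log2 CPM with the mean of the 8, among 411 miRNAs whose log2 CPM averaged 3 or more. Over the 15 hESC libraries these were miR-135a-5p (0.975), miR-30e-5p (0.937), miR-106a-5p (0.937), miR-302a-3p (0.934) and miR-135b-5p (0.931). Over the 12 K562 libraries they were miR-425-5p (0.926), miR-24-2-5p (0.88), miR-301a-3p (0.847), miR-548x-5p (0.828) and miR-20a-3p (0.821), the last a passenger arm of the cluster itself. The libraries share groups and scaling, the values are the highest of many, and in hESCs they lean on mutant library 1, whose members lay 0.79 above the median library on the log2 scale on average, against -0.46 to 0.16 in the other 14.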

How the data were processed

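RNA from 27 libraries was isolated with Trizol and sequenced after Lexogen small RNA library preparation. The authors trimmed reads with cutadapt 2.5, aligned them to miRBase entries with Bowtie2 2.2.9 without seed mismatches and counted them with SAMtools 1.3.1. The deposited counts are raw reads per mature arm, so reads with and without added 3' tails are not told apart in them. Adaptor entries (0.00478 to 0.206% of counts) were removed, and 0 columns of values were left unused. A miRNA with no count in the first column of a table is not listed in that table.

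Each line was fitted with all its groups by edgeR 4.0.16 (TMM, quasi-likelihood, filterByExpr minimum count 10) in R 4.3.3, without a replicate term, on miRNAs listed in every table: 998 in hESCs, 881 in K562 and 892 in the joint fit of 4 groups. Calls are at a Benjamini-Hochberg adjusted p under 0.05 over all miRNAs tested. Alternatives were other scalings and filters, DESeq2 1.42.0, a replicate block, fewer groups and each library left out. Ratios added 0.5 to counts and were tested by exact permutation. On simulated data a log2 change of 1 was called in 47% of hESC, 31% of K562 and 38% of joint cases. The labels do not say that the libraries of a group are separate cultures. For its miRNA sequencing of WT and USB1 mutant hESCs and of WT and USB1-KO K562 cells the paper gives 3 biological replicates. It does not say how these were made. The p-values rest on library-to-library spread, which may be technical. The 2 closest pairs, K562 KO libraries 1 and 2 and WT hESC libraries 2 and 3, differed beyond counting noise (chi-squared per degree of freedom 14.2 and 26.4). The columns of the K562 control table are named WT_1 to WT_3, which are the titles of the WT hESC samples. The table was taken as K562 control because the descriptions of the 3 control samples name it, and its blood markers were high (8199 to 10667 CPM) and its stem cell markers low (8.71 to 829 CPM). Its columns were not tied to single control samples and are numbered here as named. Same-numbered libraries deviated together only between KO shPARN and control shPARN (r of 0.328, 0.154 and 0.193). The 8 members, their sum and the related lists were named by a rule (every member, up to 4 examples a list by abundance, 5 likest miRNAs a line, and the fold changes shown in full where groups or calls differ), and members and lists were chosen with earlier results of these data known.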

Additional observations from a re-analysis of the deposited data

How the results depend on the processing

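The number of members called moved in 6 of 14 comparisons. For the USB1 mutant against WT it was 1, and 2 with a filter at 10 CPM, 2 by DESeq2, 0 with only the groups compared, and 0 to 3 with a library left out. For control shPARN against control it was 2, and 4 by DESeq2, 1 with only the groups compared and 0 to 4 with a library left out. For KO shPARN against KO it was 0, and 1 with library totals or a filter at 10 CPM. For KO shPARN against control shPARN it was 1, and 0 with library totals, 0 with only the groups compared and 0 to 1 with a library left out. For the interaction it was 0, and 1 by DESeq2. For WT hESCs against control K562 it was 8, and 7 to 8 over all alternatives, with miR-92a-3p the call lost. No call changed sign. Of 1504 member fold changes under alternatives 21 lost and 13 gained a call, and 82 that were not called changed sign. Over all groups of a line, same-numbered libraries correlated at -0.153 to 0.329 in 30 hESC pairs and -0.033 to 0.328 in 9 K562 pairs, and only KO shPARN with control shPARN had all 3 pairs over 0.1. There the replicate block left 1 call, miR-17-5p at -0.55 (edgeR adjusted p = 0.032). With the block 0 members were called in the USB1 mutant, where miR-19a-3p gave 1.36 (edgeR adjusted p = 0.0505). It changed no other call. The columns of the K562 control table could not be tied to single control samples, so no block was fitted with it. The number of ratios that did not overlap was 36, 31 against miR-20a-5p, 36 with 1 added to counts, and 36 to 42 with a library left out. USB1 KO library 3, with 1530929 counts, was the shallowest. The fits without mutant library 1 for the related lists were chosen after seeing the data.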
